A study of Mus musculus with 19 samples.

Results

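The dual-specificity MAP kinase phosphatases were followed through 9 genes, Dusp1, Dusp2, Dusp4, Dusp5, Dusp6, Dusp7, Dusp8, Dusp10 and Dusp16, among 36528 Entrez gene IDs counted in 19 mouse RNA-seq libraries. The rows were taken by Entrez ID from the gene counts of each library, and all 9 were found and passed the filter on low counts in every comparison. Polyadenylated RNA came from sorted alveolar type II (AT2) cells, the surfactant-making epithelial cells of the alveolus, and from dissected lung. The series asks which genes depend on Etv5, an ETS family transcription factor, in these cells and in lung.

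Control mice carried SpcCreERT2;RosatdTomato, a tamoxifen-switched Cre under the surfactant protein C promoter with a tdTomato reporter. Mice labelled Etv5KO carried SpcCreERT2;RosatdTomato;Etv5ko/loxp, so that a knockout allele of Etv5 lay opposite a loxP-flanked one. Both genotypes were injected with tamoxifen at 100 mg/kg over 5 days and were then left for 5 days. AT2 cells were sorted as EpCAM+, tdTomato+, CD45- and CD31-. The libraries were 4 of control AT2 cells, 5 of Etv5KO AT2 cells, 5 of control lung and 5 of Etv5KO lung. Age, sex and background strain are not given in the labels used here, and the labels do not tie a library to a mouse, so p-values measure the spread between libraries. The design names 5 mice of each genotype for both sample types, so AT2 and lung libraries may share mice, and the tissue and interaction fits treat them as independent. The Cre driver acts in surfactant protein C expressing cells, so whole lung also holds cells outside its reach.

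Total counts ran from 14971793 to 28671262 per library. Etv5 stood at 667 ± 36.1 CPM (read counts scaled to library size) in control and 714 ± 58.4 in Etv5KO AT2 cells, and at 104 ± 7.20 and 113 ± 10.8 CPM in control and Etv5KO lung (SD; n = 4, 5, 5 and 5). It was thus not lower under the Etv5KO label, and since the counts cover whole gene models they do not check that label. Directions are therefore given by label. In control AT2 cells against control lung, all 6 AT2 markers examined were higher (median log2 fold change 2.80) and all 8 endothelial markers were lower (median −5.45). Of all 17118 genes tested there, 35.6% were higher and 38.9% lower, with a median of −0.01. The 6 AT1 markers were split, with 2 higher and 4 lower (median −3.30). Higher were Ager, at means of 2241 CPM in AT2 cells and 1602 in lung, and Aqp5, at 609 and 234 CPM. The summed endothelial markers lay at 107 to 152 CPM in control AT2 libraries against 4487 to 5477 CPM in control lung. Ptprc, the CD45 gene, lay at 4.45 to 12.6 against 192 to 317 CPM. None of the marker genes was at 0 in all libraries of a group.

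MAP kinases are switched on when an upstream kinase phosphorylates a threonine and a tyrosine in their activation loop, and these phosphatases switch them off by removing both phosphates. The family falls into nuclear enzymes whose genes are quickly induced by growth factors and stress (Dusp1, Dusp2, Dusp4, Dusp5), cytoplasmic enzymes selective for ERK (Dusp6, Dusp7), and enzymes that prefer JNK and p38 (Dusp8, Dusp10, Dusp16). Several are themselves transcribed in response to the kinases they inactivate, and Dusp6 is widely used as a readout of FGF and ERK signalling, a pathway that also induces the ETS factors Etv4 and Etv5 in lung epithelium.

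The promoters of 4 of these genes are shown because Dusp6 and Dusp5 were the members lower in Etv5KO AT2 cells, Dusp1 had the largest difference between AT2 cells and lung, and Dusp8 shares a motif with Dusp1. Each line gives the 250 bases before the annotated start, 5′ to 3′ on the gene's strand, from RefSeq promoter sequences of GRCm38.p6. Capitals mark the cyclic AMP response element TGACGTCA.
Dusp6, chr10:99262981-99263230, plus strand: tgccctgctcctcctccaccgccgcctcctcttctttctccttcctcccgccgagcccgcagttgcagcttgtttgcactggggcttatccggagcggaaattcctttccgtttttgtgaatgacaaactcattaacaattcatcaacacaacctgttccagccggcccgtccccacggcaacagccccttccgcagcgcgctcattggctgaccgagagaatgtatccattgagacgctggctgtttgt
Dusp5, chr19:53528895-53529144, plus strand: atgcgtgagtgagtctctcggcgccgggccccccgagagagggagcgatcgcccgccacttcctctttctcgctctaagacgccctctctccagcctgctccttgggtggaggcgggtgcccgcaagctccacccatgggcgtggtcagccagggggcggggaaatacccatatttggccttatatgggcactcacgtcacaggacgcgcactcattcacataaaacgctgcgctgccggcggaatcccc
Dusp1, chr17:26508473-26508722, minus strand: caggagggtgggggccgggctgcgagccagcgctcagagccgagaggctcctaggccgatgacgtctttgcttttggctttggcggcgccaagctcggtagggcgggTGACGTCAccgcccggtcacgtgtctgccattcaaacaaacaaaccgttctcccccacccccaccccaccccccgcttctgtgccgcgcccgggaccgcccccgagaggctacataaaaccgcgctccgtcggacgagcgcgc
Dusp8, chr7:142095285-142095534, minus strand: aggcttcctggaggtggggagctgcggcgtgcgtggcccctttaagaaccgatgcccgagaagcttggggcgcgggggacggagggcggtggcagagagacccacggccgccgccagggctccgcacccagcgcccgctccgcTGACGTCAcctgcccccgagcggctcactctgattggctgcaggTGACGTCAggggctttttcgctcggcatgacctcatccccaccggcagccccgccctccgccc
Windows of this kind were matched for 8 of the 9 members, all but Dusp4, and searched on both strands. TGACGTCA occurred at position −143 in Dusp1 and at positions −107 and −63 in Dusp8, counted back from the start, and in 1.55% of 32851 promoters. The ETS-type sequence CCGGAA (12% of all promoters) and the longer CCGGAAGT that contains it (2.88%) were not found in any of the 8 windows. Nor was the AP-1 element TGANTCA (6.75%). Other forms of ETS site, such as GGAA with other flanking bases, were not searched, so their absence is not shown. The Dusp6 window was 56.4% G and C and the Dusp5 window 64%, with 68.4% in Dusp1 and 71.6% in Dusp8, against a median of 52.4% over all promoters.

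**Figure D1:**
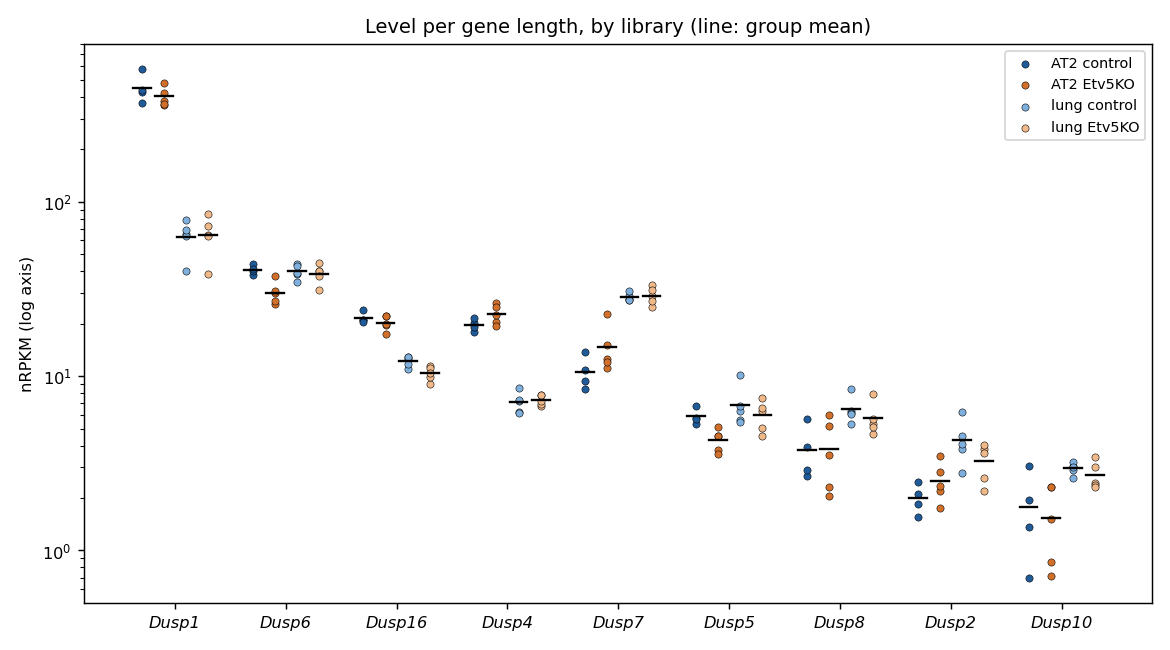
Level per gene length of the 9 phosphatase genes, on a log axis of the authors' size-factor-adjusted RPKM, with 1 point per library and a line at each group mean. Dusp1 lies far above the other genes in AT2 cells, at means of 450 and 401, while in lung it overlaps Dusp6.

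Dusp1 was by far the most abundant member per gene length in AT2 cells. On the authors' RPKM divided by a size factor (nRPKM), the scale used here for levels of different genes, it averaged 450 ± 87.8 in control AT2 cells (SD, n = 4), and its libraries lay between 366 and 574. Dusp6 was next at 40.8 ± 2.64, followed by Dusp16 at 21.6 ± 1.63 and Dusp4 at 19.7 ± 1.54, whose ranges overlapped each other. Dusp7 stood at 10.6, Dusp5 at 5.88 and Dusp8 at 3.79, the last pair overlapping, and Dusp2 at 1.99 and Dusp10 at 1.77 overlapped at the bottom. Dusp1 made up 80.9% of the summed nRPKM of the 9 genes in control AT2 cells and 80.1% in Etv5KO AT2 cells.

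Whole lung had a flatter profile. Dusp1 averaged 63.1 ± 14.0 nRPKM in control lung (SD, n = 5) and held 36.9% of the family's sum, with a range that overlapped that of Dusp6 at 39.8 ± 3.67 (23.2% of the sum). Dusp7 ranked after it at 28.4 ± 1.49 nRPKM, 16.6% of the sum against 1.90% in control AT2 cells. Dusp16 followed at 12.2, and the ranges of neighbours in the order Dusp4 (7.09), Dusp5 (6.84), Dusp8 (6.47), Dusp2 (4.29) and Dusp10 (2.96) all overlapped. The order was the same in Etv5KO lung, where Dusp1 took 38.6%, Dusp6 23.0% and Dusp7 17.3% of the sum. Summed over the family, control AT2 cells reached 556 ± 88.4 and control lung 171 ± 18.1 nRPKM. Dusp1 alone averaged 450 and 63.1 nRPKM of these sums, so their difference mostly reflects that 1 gene. In such bulk samples, fewer cells of a type and less RNA per cell cannot be told apart.

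**Figure D2:**
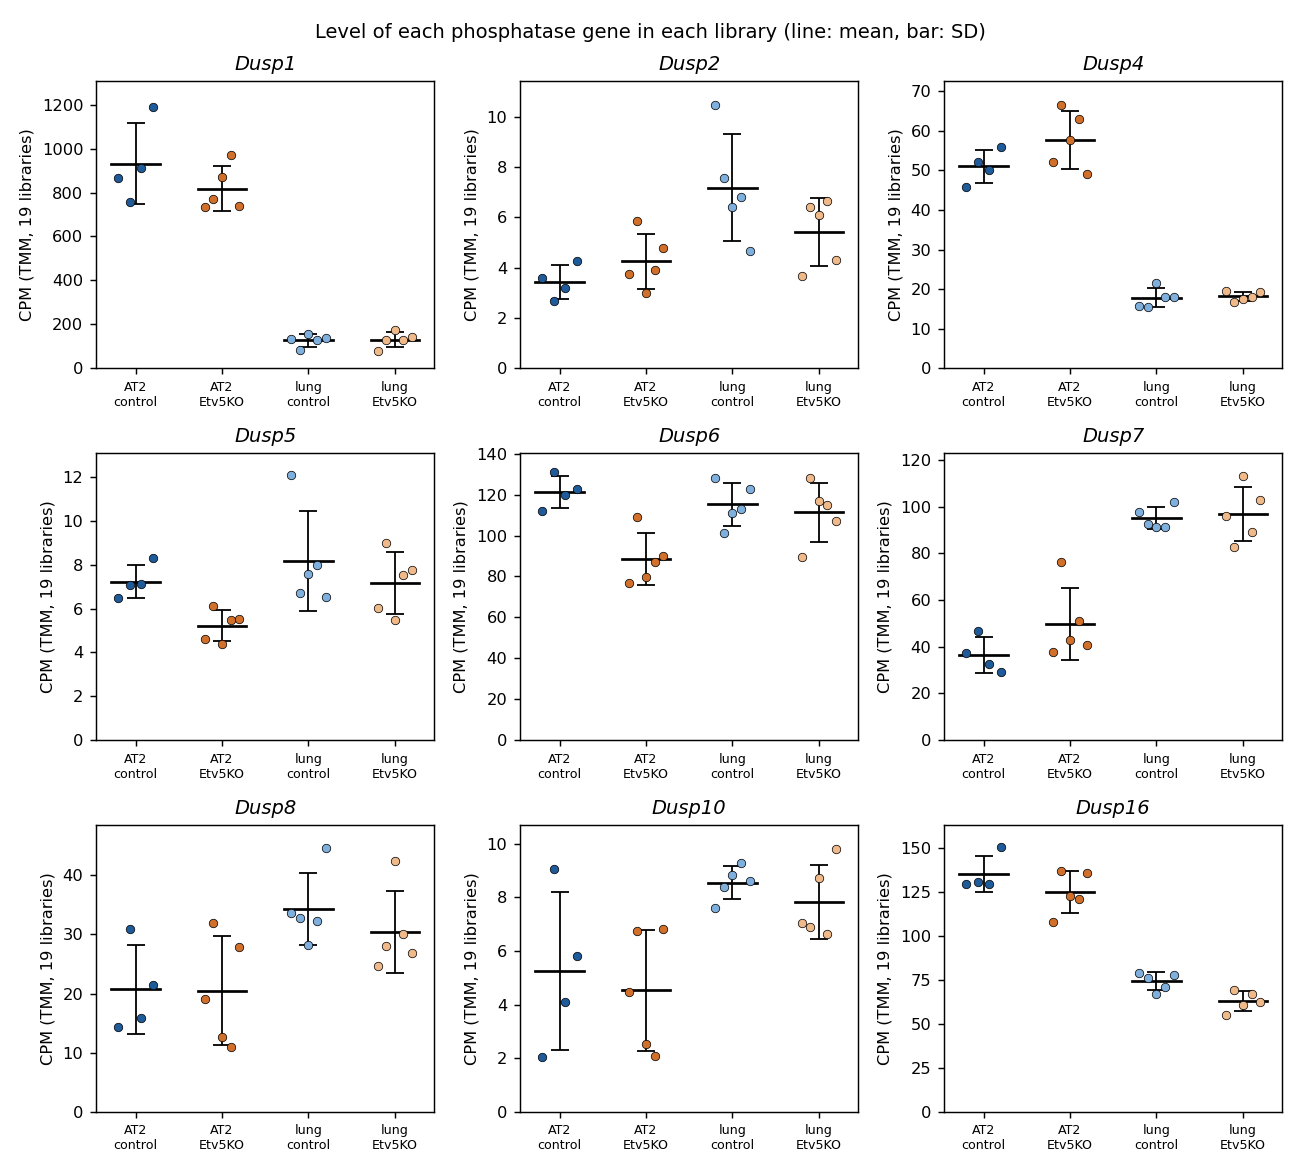
CPM of each phosphatase gene in every library, scaled by TMM over all 19 libraries, with the group mean as a line and the SD as a bar. For Dusp5 and Dusp6 every Etv5KO AT2 library lies below every control AT2 library, and for Dusp1, Dusp4 and Dusp16 every AT2 library lies above every lung library.

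The genotype comparison in AT2 cells asks which of these phosphatases differ where Etv5 is targeted. Dusp6 and Dusp5, both selective for ERK, were lower in Etv5KO AT2 cells by 1.37-fold and 1.38-fold, and the other 7 members did not pass. These 2 falls among 9 members stand against 9.87% of all 14939 genes tested that passed in AT2 cells, with 4.84% passing as lower and 5.03% as higher. Dusp6, the cytoplasmic enzyme, measured 112, 131, 120 and 123 CPM in the control libraries and 76.9, 109, 79.5, 86.8 and 90.0 CPM in the Etv5KO libraries. The highest Etv5KO library, number 2, lay just under the lowest control, and the groups did not overlap. The means were 122 ± 8.09 (SD, n = 4) and 88.5 ± 12.8 CPM (SD, n = 5). Dusp6 fell by 0.45 on the log2 scale (SE 0.10, 95% interval −0.67 to −0.24), with an edgeR adjusted p of 0.0120. The call was kept when any 1 library was left out (adjusted p 0.00182 to 0.0326), and was lost with library size as the only scaling (log2 −0.39, adjusted p 0.0702).

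Dusp5, the nuclear ERK-selective enzyme, was a gene of low level, at 6.46, 7.06, 7.10 and 8.30 CPM in control and 4.60, 6.12, 4.40, 5.47 and 5.52 CPM in Etv5KO AT2 libraries. These values rest on 119 to 164 and on 70 to 116 reads per library. Again the groups did not overlap, with Etv5KO library 2 the highest of its group. Dusp5 fell by 0.46 on the log2 scale (SE 0.13, 95% interval −0.76 to −0.17), and its edgeR adjusted p of 0.0499 lay at the threshold. Leaving out any 1 of the 9 libraries other than Etv5KO library 2 ended the call (adjusted p 0.0628 to 0.134), while the log2 fold change stayed between −0.52 and −0.39. Of 16 alternative settings, 4 kept it, DESeq2 (adjusted p 0.0227) and limma-voom (0.0452) among them.

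Both genes without overlap were lower, and genes whose Etv5KO libraries all lay under all controls made up 6.49% of those tested. The median log2 fold change of the 9 members was −0.11, and that of all genes was −0.01. With library size as the only scaling neither fall passed.

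Dusp7, the other cytoplasmic ERK phosphatase, measured 37.3, 46.9, 32.5 and 29.0 CPM in control and 37.9, 76.2, 42.8, 50.9 and 40.8 CPM in Etv5KO AT2 libraries. The groups overlapped, and Etv5KO library 2 stood above the other 8. At log2 0.45 (SE 0.20, 0.01 to 0.89) it did not pass (edgeR adjusted p 0.217, unadjusted 0.0473). Together with Dusp5 and Dusp6, 3 of the 9 members had an unadjusted edgeR p under 0.05, as had 3321 of all 14939 genes tested. Without Etv5KO library 2 the Dusp7 log2 fold change was 0.25, the lowest of the leave-one-out values, which ran up to 0.60.

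The inducible nuclear enzymes Dusp1, Dusp2 and Dusp4 did not pass in AT2 cells. Dusp1, which acts on p38, JNK and ERK, measured 868, 756, 912 and 1190 CPM in control and 736, 769, 871, 973 and 740 CPM in Etv5KO libraries, and the groups overlapped. Its log2 fold change was −0.18 (95% interval −0.47 to 0.11, edgeR adjusted p 0.475). Dusp2, best known from activated leukocytes, had a log2 fold change of 0.32 (−0.14 to 0.78) at 3.43 ± 0.670 and 4.26 ± 1.10 CPM, and Dusp4 of 0.18 (−0.03 to 0.39) at 51.0 ± 4.17 and 57.7 ± 7.30 CPM. Of the JNK and p38 phosphatases, Dusp16 was measured closely, with a log2 fold change of −0.11 (−0.29 to 0.07). Dusp8 (−0.01, −0.72 to 0.70) and Dusp10 (−0.22, −1.16 to 0.73) had wide intervals.

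In whole lung none of the 9 members passed with edgeR, where 0.415% of 17098 genes did. DESeq2 and limma-voom also called none. With edgeR 1 member, Dusp16, had an unadjusted p under 0.05, as had 944 of all 17098 genes tested. Dusp16 measured 79.3, 76.3, 66.9, 71.0 and 77.9 CPM in control and 55.0, 69.3, 60.8, 67.3 and 62.4 CPM in Etv5KO lung. Control libraries were the higher ones, and the groups overlapped in that Etv5KO libraries 2 and 4 lay above control library 3. This gave a log2 fold change of −0.24 (SE 0.07, −0.40 to −0.08) and an edgeR adjusted p of 0.374.

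Dusp6 measured 128, 101, 111, 113 and 123 CPM in control lung and 89.4, 128, 117, 115 and 107 CPM in Etv5KO lung. Most libraries of both groups lay in the same range, with Etv5KO library 1 below the rest. Dusp6 had a log2 fold change there of −0.05 (SE 0.10, −0.26 to 0.15, edgeR adjusted p 0.981). For Dusp5 it was −0.20 (−0.61 to 0.20, adjusted p 0.978). The other 6 members lay between −0.41 for Dusp2 and 0.03 for Dusp1, and the median over the 9 was −0.13 against −0.01 over all genes.

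**Figure D3:**
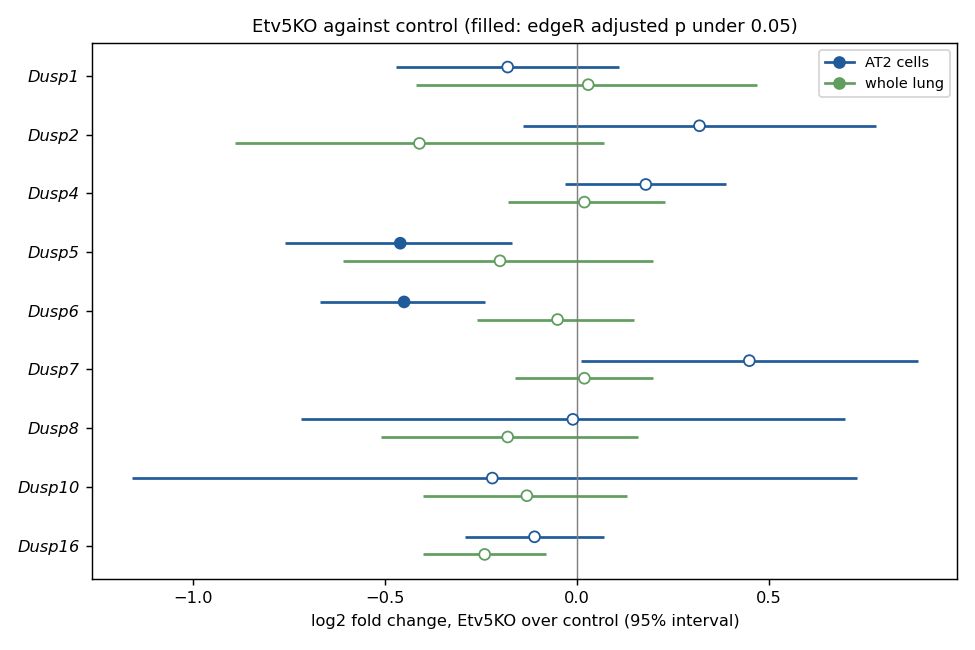
Log2 fold change, Etv5KO over control, of each phosphatase gene in AT2 cells and in whole lung, with 95% intervals from edgeR and filled points where the adjusted p was under 0.05. The filled points are Dusp5 (−0.46) and Dusp6 (−0.45) in AT2 cells.

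Whether the genotype effect differed between AT2 cells and lung was tested as an interaction over all 19 libraries, which reuses the libraries of the single comparisons. None of the 9 members passed with edgeR, nor with DESeq2 or limma-voom, where 1.59% of 17698 genes passed with edgeR. Unadjusted, 2 of the 9 members had an edgeR p under 0.05, as had 1765 of all 17698 genes tested. For Dusp6 the AT2 effect minus the lung effect was −0.41 on the log2 scale (SE 0.14, 95% interval −0.71 to −0.11, edgeR adjusted p 0.229). For Dusp2 it was 0.72 (SE 0.32, 0.05 to 1.40, adjusted p 0.440), from 0.32 in AT2 cells and −0.41 in lung. For Dusp5 it was −0.27 (−0.78 to 0.24, adjusted p 0.837), so neither fall in AT2 cells was shown to differ from lung after adjustment.

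In the comparison of tissues, the nuclear enzymes and the JNK and p38 enzymes each held members that were higher and members that were lower. Control AT2 cells had more Dusp1, Dusp4 and Dusp16 RNA than control lung and less Dusp7, Dusp2 and Dusp8. These 6 of 9 members compare with 74.5% of 17118 genes tested, 35.6% as higher and 38.9% as lower, so the share called was no larger than the background. Libraries did not overlap for 5 of the 9, against 66.5% of all genes. The sort and the dissociation before it come with the AT2 libraries alone, so cell type and preparation cannot be told apart.

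Dusp1 measured 132, 80.6, 157, 127 and 137 CPM in control lung, against 756 to 1190 CPM in control AT2 cells as given above. All AT2 libraries lay far above all lung libraries. Dusp1 was 7.35-fold higher in AT2 cells (log2 2.88, SE 0.18, 95% interval 2.47 to 3.28), with an edgeR adjusted p of 3.52e-08. In the Etv5KO libraries it was 6.39-fold higher (log2 2.68, SE 0.18, adjusted p 1.07e-08), where lung measured 76.9, 129, 172, 126 and 143 CPM.

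A list of 20 immediate early and dissociation response genes differed between the tissues in the same direction as Dusp1. Against control lung, 17 of the 20 were higher and 2 lower in control AT2 cells, with a median log2 fold change of 2.40 against −0.01 over all genes. Their summed level was 15120 to 21079 CPM in control AT2 libraries and 1416 to 1920 CPM in control lung. The largest of these differences included Fosb (log2 8.56), Fos (7.19) and Egr1 (5.79), transcription factors induced within minutes of a stimulus, and Jun (3.14) and Ier2 (2.93) were closest in size to Dusp1. The part of this response in the Dusp1 difference was not tested. Glucocorticoids also induce Dusp1. Of 6 other glucocorticoid targets, 1 was higher and 2 were lower in the control AT2 libraries, with a median of −0.38. Over all genes tested, 35.6% were higher and 38.9% lower. The part of glucocorticoids in the Dusp1 difference was not tested.

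Dusp4, a nuclear enzyme that acts on ERK and JNK, measured 45.9, 52.1, 50.2 and 55.9 CPM in control AT2 cells and 15.7, 15.5, 21.5, 18.1 and 18.1 CPM in control lung. All AT2 libraries lay above all lung libraries, by 2.86-fold on average (log2 1.52, SE 0.10, edgeR adjusted p 5.77e-08). Dusp16 measured 130, 131, 130 and 151 CPM in control AT2 cells, above all of the lung values already given, a 1.82-fold difference (log2 0.87, SE 0.08, adjusted p 5.59e-07). Both differences were of like size in the Etv5KO libraries, at log2 1.68 (SE 0.09) for Dusp4 and 1.00 (SE 0.08) for Dusp16.

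Dusp7 went the other way. Control lung measured 97.5, 92.7, 91.1, 91.4 and 102 CPM, and each value was above all AT2 libraries of either genotype. It was 2.61-fold lower in AT2 cells (log2 −1.38, SE 0.12, edgeR adjusted p 6.68e-07), and in the Etv5KO libraries it was −0.94 (SE 0.16, adjusted p 1.47e-04). Dusp2 measured 3.58, 2.68, 3.20 and 4.27 CPM in control AT2 cells and 10.5, 7.57, 6.40, 6.80 and 4.66 CPM in control lung, without overlap (log2 −1.07, SE 0.23, adjusted p 0.00109). In the Etv5KO libraries the Dusp2 groups overlapped and the value was −0.33 (adjusted p 0.156). Dusp8 was also lower in control AT2 cells (log2 −0.72, SE 0.21, adjusted p 0.00794), with overlapping libraries. Ptprc was lower in control AT2 cells by a log2 fold change of −4.84. The medians were −4.70 for 8 macrophage, −4.96 for 8 lymphocyte, −5.13 for 5 neutrophil, −5.45 for 8 endothelial and −5.97 for 8 mesenchymal markers, and the part of these cells in the lower Dusp7, Dusp2 and Dusp8 levels was not tested.

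**Figure D4:**
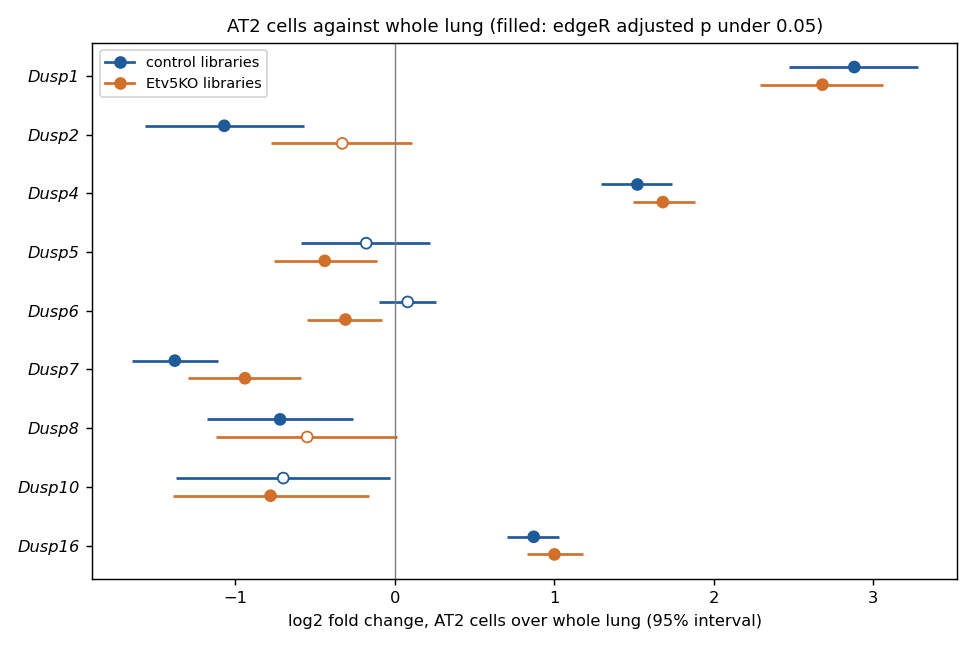
Log2 fold change, AT2 cells over whole lung, of each phosphatase gene in control and in Etv5KO libraries, with 95% intervals from edgeR and filled points where the adjusted p was under 0.05. Dusp1, Dusp4 and Dusp16 lie to the right and Dusp7 to the left in both genotypes, while Dusp6 is open at 0.08 in controls and filled at −0.31 in Etv5KO.

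The ERK-selective Dusp6 and Dusp5 differed little between tissues in controls. Dusp6 had a log2 fold change of 0.08 (SE 0.08, 95% interval −0.10 to 0.26, edgeR adjusted p 0.396) and Dusp5 of −0.18 (−0.59 to 0.22, adjusted p 0.389). With library size as the only scaling Dusp6 turned to −0.32 (adjusted p 0.0121) and Dusp5 passed as lower at −0.59 (adjusted p 0.0168), a scaling that moved the median of all genes to −0.42. In the Etv5KO libraries Dusp6 was lower in AT2 cells than in lung (log2 −0.31, SE 0.11, adjusted p 0.0158), as was Dusp5 (−0.44, SE 0.15, adjusted p 0.0185). With them, 7 of 9 members passed among the Etv5KO libraries, 3 higher and 4 lower, where 78.0% of 16740 genes did, 38.3% as higher and 39.7% as lower. The Dusp5 call was lost without AT2 Etv5KO library 3 (adjusted p 0.0525) or lung Etv5KO library 2 (0.0538).

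The JNK and p38 phosphatase genes Dusp8 and Dusp10 varied most between AT2 libraries. Dusp10 measured 2.06, 9.05, 4.11 and 5.81 CPM in control and 4.46, 6.76, 2.54, 2.07 and 6.81 CPM in Etv5KO AT2 libraries, on 36 to 186 reads each. Its coefficient of variation was 56.2% and 49.6% in the AT2 groups, against 7.30% and 17.7% in control and Etv5KO lung. Dusp8 measured 14.4, 31.0, 15.9 and 21.5 CPM in control and 19, 32.0, 12.6, 11.0 and 27.9 CPM in Etv5KO AT2 libraries. Both genes were highest of their group in control library 2 and among the higher ones in Etv5KO libraries 2 and 5, and both were low in control library 1 and Etv5KO libraries 3 and 4. The coefficients of variation of Dusp8 were 36.3% and 45.2% in AT2 cells and 17.9% and 23.0% in lung, and those of Dusp16 were 7.67% and 9.38% in AT2 cells.

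**Figure D5:**
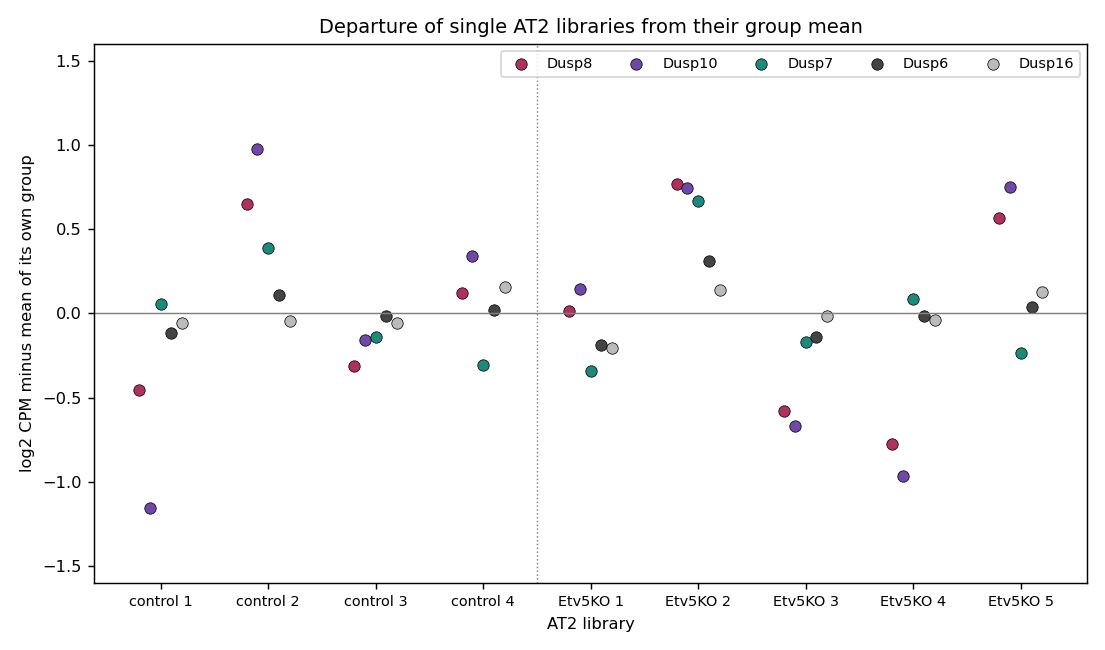
Departure of each AT2 library from the mean of its own group, in log2 CPM, for 5 phosphatase genes. Dusp8 and Dusp10 lie on the same side of 0 in all 9 libraries, at 0.65 and 0.98 in control library 2 and at −0.77 and −0.97 in Etv5KO library 4, while Dusp6 departs by at most 0.31.

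The size of the Dusp10 tissue difference moved with these libraries. In controls its log2 fold change, AT2 cells over lung, was −0.70 (SE 0.31, edgeR adjusted p 0.0573), and without control AT2 library 2 it was −1.09 (adjusted p 0.00218). It was called lower in 7 of 16 alternatives, 1 of 9 that left out a library and 6 of the other 7, DESeq2 (adjusted p 0.0287) and limma-voom (0.0169) among them. In the Etv5KO libraries Dusp10 was lower in AT2 cells (−0.78, SE 0.28, adjusted p 0.0238), a call that was lost without AT2 Etv5KO library 3 (0.0613) or lung Etv5KO library 5 (0.0587). Dusp8 did not pass there (−0.55, adjusted p 0.0687), and passed at −0.76 without AT2 Etv5KO library 2 (adjusted p 0.0156) and at −0.69 without AT2 Etv5KO library 5 (0.0389). It also passed with library size only (0.00942), DESeq2 (0.0427) and limma-voom (0.0329), which makes 5 of 17 alternatives.

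For each member, the genes with the most similar course over the 19 libraries were found among 11961 others, by the root mean square difference of log2 CPM after each gene was centred on its mean. The nearest to Dusp1 were Ier2 (0.27), Jun (0.29) and Zfp385b (0.30), where Dusp1 itself had an SD of 1.42. Dusp10 was nearest to Dusp8 (0.29), followed by Bend4 (0.33) and Myc (0.37), and Dusp5 had Dusp6 as its second nearest (0.21) after 1700066M21Rik (0.21). Dusp6 was nearest to Picalm (0.14), Dusp4 to Ctnnal1 (0.12), Dusp7 to Myh9 (0.18), Dusp8 to Fanca (0.27), Dusp2 to Gsr (0.28) and Dusp16 to Nek4 (0.13). These are descriptions over libraries that fall into 2 tissues, and genes that differ alike between AT2 cells and lung come out near each other.

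The rest of the pathway was read from lists of its parts. In AT2 cells, of 11 tested among 15 other dual-specificity and MAP kinase tyrosine phosphatases, none passed with edgeR and 2 had an unadjusted p under 0.05, with a median log2 fold change of −0.21. Of all 14939 genes tested, 3321 had such an unadjusted p, 5.03% rose and 4.84% fell. Dusp9, an ERK phosphatase of the same family as the 9 members, was among the 11 tested, at −0.33 (adjusted p 0.393). Of 9 MAP kinases tested, Mapk13, which encodes a p38 kinase, rose by 0.36 on the log2 scale (adjusted p 0.0454). None of 6 MAP kinase kinases passed with edgeR, nor had any an unadjusted p under 0.05. Mapk13 was also the gene of these lists that passed in whole lung (0.49, adjusted p 0.0305).

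Other feedback inhibitors and targets of ERK did not share 1 direction. Of 7 tested Sprouty, Spred and Sef genes, 1 fell and 1 rose in AT2 cells, and 4 had an unadjusted edgeR p under 0.05. Over all 14939 genes tested, 4.84% fell and 5.03% rose, and 3321 had such an unadjusted p. Spry1 fell from 446 ± 39.6 to 263 ± 15.2 CPM (log2 −0.75, SE 0.08, edgeR adjusted p 1.24e-04). Spred3 rose from 18.4 ± 3.37 to 25.5 ± 3.19 CPM (0.47, adjusted p 0.0410), with overlapping libraries. Of 12 transcriptional targets of ERK, 3 rose and none fell, where 5.03% of all genes rose, and their median was 0.43 against −0.01 over all genes. The 3 were Etv4, a close relative of Etv5 (log2 2.73, from 0.667 ± 0.296 to 4.56 ± 1.02 CPM), the D-type cyclin gene Ccnd1 (1.16) and Emp1 (2.02), a membrane protein gene. Both lists were chosen with earlier results of these data known. Their counts and the median therefore describe the listed genes and do not test ERK targets as a class. Dusp5 and Dusp6 are known targets of ERK signalling as well, and fell in the same comparison.

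Other gene lists were read beside the Dusp5 and Dusp6 falls in AT2 cells. Over all 14939 genes tested there, 3321 had an unadjusted edgeR p under 0.05. The log2 fold change was positive for 7296 of them and negative for 7643, and 5.03% rose and 4.84% fell. Of the 20 immediate early genes, 16 had a negative log2 fold change in Etv5KO AT2 cells and 1, Jun, passed (−0.47, edgeR adjusted p 0.0339), with a median of −0.33. The summed level was 15120 to 21079 CPM in control and 12352 to 15543 CPM in Etv5KO AT2 libraries. Of 6 other glucocorticoid targets none passed with edgeR, and 1 had an unadjusted p under 0.05. Of markers of other cells, none of 8 endothelial, 8 mesenchymal and 6 tested lymphocyte genes passed with edgeR, and 2, 3 and 3 of them had an unadjusted p under 0.05. Their log2 fold changes were positive for 8 of 8, 8 of 8 and 6 of 6 genes, with medians of 0.25, 0.51 and 0.51. Summed endothelial markers lay at 107 to 152 CPM in control and 114 to 173 CPM in Etv5KO AT2 libraries, mesenchymal ones at 44.8 to 72.8 and 54.0 to 100 CPM, and lymphocyte ones at 26.3 to 45.8 and 42.0 to 59.3 CPM. Of 5 airway markers 2 rose, with sums of 406 to 820 and 775 to 1133 CPM, of 6 AT1 markers 2 rose and 1 fell, and of 8 macrophage markers 1 rose. Of 6 AT2 markers 1 fell, Sftpa1 (log2 −0.93), with sums of 129234 to 198341 and 123291 to 157376 CPM. The part of any of these in the lower Dusp5 and Dusp6 levels was not tested.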

How the data were processed

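The deposited count of each gene tallies reads with a unique alignment to its gene model, and a second deposited column holds RPKM divided by a size factor per sample, per the file headers. GSNAP (version not given) and build mm9 are named in the submitters' processing notes. Annotation release, counter and strand setting were not given in the sources used here. IDs were named from RefSeq (GRCm38.p6), which covered 31049 of 36528 IDs and 98.7% of counts. Promoter windows come from that build, and no mm9 coordinates are given.

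Counts were tested with edgeR 4.0.16 in R 4.3.3: filterByExpr (minimum count 10, minimum total 15), TMM, two-sided quasi-likelihood F test, Benjamini-Hochberg adjustment over all genes tested and a threshold of 0.05. Each comparison was fitted on its own libraries, and the interaction on all 19. An adjusted p under that threshold is what rose, fell and passed stand for. Printed CPM are scaled by TMM over all 19 libraries. Standard errors were derived from the F statistic. Library numbers follow accession order. No pair within a group was a duplicate (chi-square per degree of freedom 7.81 to 61.8). No 2 members, nor a member and another ID, had identical counts.

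The members and lists were chosen with earlier results of these data known. Named genes were the members, Etv5, up to 4 passing genes of each list with the smallest p, and the 3 genes most like each member at a mean of at least 5 CPM. Immediate early genes named beside Dusp1 for the tissue comparison, the unadjusted Dusp16 and Dusp9 were chosen after their values were seen. Alternatives were other scalings, no filter, DESeq2 1.42.0, limma-voom (limma 3.58.1), 1 fit over all libraries and leaving out each library. The procedure was tested on simulated data. 1 pathway list is not reported here.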

Additional observations from a re-analysis of the deposited data

Results flagged for a closer look

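In 36 sets of CPM values, 1 for each of the 9 genes in each of the 4 groups, 2 held a library that stood apart from the rest of its group. Chance alone flags about 5% of such sets. Dusp5 was at 12.1 CPM in control lung library 1, with the other 4 control lung libraries at 6.51 to 7.99 CPM. The gap made up 0.735 of the group's range. Dusp16 was at 151 CPM in control AT2 library 4, with the other 3 at 130 to 131 CPM, a gap of 0.952 of the range.

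The same control AT2 library 4 was the highest AT2 library for Dusp1, Dusp5 and Dusp16. Etv5KO AT2 library 2 was the highest for Dusp2, Dusp4, Dusp7 and Dusp8, and lung Etv5KO library 1 was the lowest lung library for 5 of the 9 genes.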

How the results depend on the processing

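Of 819 recomputed member fold changes, 766 kept their direction and their side of the threshold, 17 lost a call, 14 gained one and 22 changed sign, 1 of them with a call. The count of members passing in AT2 cells, 2 as reported, was 0 with library size as the only scaling, 1 with the authors' size factors, 1 without the low-count filter, 1 in a single fit over all 19 libraries and 1 to 2 with 1 library left out. The cause was not tested. With library size only, 894 genes were higher and 482 lower in AT2 cells (751 and 723 as reported), 3318 and 9484 for control AT2 cells against lung (6092 and 6662), and 3579 and 9341 for Etv5KO (6417 and 6646). There Dusp6 in control AT2 cells against lung was −0.32. Dusp8 in AT2 cells was 0.04 with library size only and 0.01 with the authors' size factors. With 1 library left out, these fold changes crossed 0: in AT2 cells Dusp8 (−0.22 to 0.26) and Dusp10 (−0.48 to 0.19), in lung Dusp1 (−0.10 to 0.16), Dusp4 (−0.02 to 0.11), Dusp6 (−0.11 to 0.02) and Dusp7 (−0.04 to 0.07), and in the interaction Dusp8 (−0.06 to 0.45) and Dusp10 (−0.32 to 0.34). Genes passing in lung, 71 as reported, were 197 with DESeq2, 122 in the single fit, and 47 and 44 without control lung libraries 3 and 4. Those of the interaction, 282, were 467 with DESeq2. No paired analysis was possible because the labels give no replicate numbers. Dusp2, Dusp5 and Dusp10 rest on few reads, at 36 to 186 per AT2 library. The part of read number in their spread was not tested.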
